A study of Homo sapiens with 6 samples.

Results

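The mitochondrial ribosomal protein genes were taken as all entries of the deposited count table whose symbol is MRPL or MRPS followed by a number and, at most, the letter A, B or C. The rule found 76 genes of 53715, of which 47 carry MRPL symbols and 29 carry MRPS symbols. Of these, 75 passed the filter on low counts and were tested (46 MRPL and 29 MRPS), and MRPL30 did not. The rule reads the symbol and no measured value.

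The cells were H9, an established human embryonic stem cell line, labelled as primed. All groups were transfected with an oligonucleotide tagged with fluorescein at 25 nM, and tagged cells were sorted and collected after 48 hours. Group ASO-Ctr received an antisense oligo with no intended target, group sO-L1 a sense oligo of the LINE1 transposable element, and group ASO-L1 an antisense oligo directed at LINE1, with 2 libraries of poly(A) RNA in each. No entry of the count table names the LINE1 element, so its knockdown was not checked here. Every group was also given 0.7 uM ISRIB (an inhibitor of the integrated stress response), 5 uM emricasan (against caspases) and 10 uM Y-27632 (against ROCK) for the first 24 hours. For the culture after transfection the labels conflict, giving mTeSR and RSeT, and the medium used is therefore unknown. All groups come from a single cell line, and the labels do not say that the 2 libraries of a group were separate cultures. The spread between libraries may therefore be technical. The main fit described below removes the difference between replicate numbers, so its p-values measure only the spread that remains. That spread is estimated largely from all genes together (2 residual degrees of freedom, median prior 44.8).

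Mitochondria keep a ribosome of their own that makes the few proteins encoded by mitochondrial DNA, all of them subunits of the respiratory chain and the ATP synthase. Its ribosomal RNAs come from mitochondrial DNA, whereas all of its proteins are encoded in the nucleus, made in the cytosol and imported. Some of these proteins descend from bacterial ribosomal proteins and others are found only in mitochondria. The gene MRPL1 is a ribosomal protein gene and has no relation to the LINE1 element that is abbreviated L1.

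Library totals ranged from 18897936 to 67192937 counts, and 3 counts corresponded to 0.0446 to 0.159 CPM (a gene's share of the library's gene counts, times 1e6). In each group replicate 1 was the shallower library. The 10 markers of primed embryonic stem cells summed to 8377 to 8791 CPM per library, and the lowest of them reached 70.4 CPM. Summed markers of trophoblast (7 genes, 9.63 to 11.2 CPM, VGLL1 at 0), endoderm (5 genes, 3.37 to 6.35 CPM), mesoderm (5 genes, 1.97 to 2.60 CPM, HAND1 at 0) and neural ectoderm (4 genes, 9.22 to 11.9 CPM) were low in every library. The 4 fibroblast markers summed to 131 to 160.8 CPM in the control groups and 160.5 to 170 CPM in ASO-L1, the endoderm markers to 4.91 to 6.35 CPM in the control groups and 3.37 to 4.07 CPM in ASO-L1, and the neural markers to 11.2 to 11.9 and 9.22 to 10.2 CPM. Their part in the results below was not tested. In these bulk libraries, fewer cells of a type and less RNA per cell cannot be told apart.

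The promoters of the genes shared a few short sequences, shown here because they are common to genes of both subunits. RefSeq promoter windows of GRCh38.p14, each of 300 bases with 250 before and 50 from the annotated start, were matched for 67 of the 76 genes. The core of the ETS family motif bound by GABPA, an activator of genes for mitochondrial proteins, was searched as CCGGAAG on both strands. It occurred in 28 of the 67 windows (41.8%), against 10.7% of all 27305 promoter windows and 17.1% of the 11349 windows of genes tested here. Of its 37 matches, 31 lay before the start and 21 of those within 60 bases of it. The following lines give the 80 bases before the start, on the gene's strand, for MRPL3, the member with the highest level per kilobase (chr3:131502972-131503051, minus strand), and for MRPS34, next in level (chr16:1773135-1773214, minus strand). MRPL20 (chr1:1407294-1407373, minus strand) and MRPL42 (chr12:93467434-93467513, plus strand) follow as the genes called higher in ASO-L1 against both control groups, and MRPL1 (chr4:77862750-77862829, plus strand) as a gene called lower against sO-L1. MRPS10 (chr6:42217862-42217941, minus strand) and MRPS18A (chr6:43687792-43687871, minus strand) are shown because they also hold the YY1 motif described next. Capitals mark CCGGAAG or its reverse complement CTTCCGG, and MRPL42 and MRPL1 have no match.
MRPL3: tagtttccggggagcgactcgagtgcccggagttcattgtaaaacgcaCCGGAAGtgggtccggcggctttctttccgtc
MRPS34: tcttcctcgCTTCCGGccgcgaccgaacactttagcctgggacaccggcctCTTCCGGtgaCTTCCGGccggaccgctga
MRPL20: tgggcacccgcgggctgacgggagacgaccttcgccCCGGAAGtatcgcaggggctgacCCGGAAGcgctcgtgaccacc
MRPL42: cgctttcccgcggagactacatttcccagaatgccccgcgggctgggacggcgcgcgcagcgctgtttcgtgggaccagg
MRPL1: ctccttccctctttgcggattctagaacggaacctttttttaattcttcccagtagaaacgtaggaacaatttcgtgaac
MRPS10: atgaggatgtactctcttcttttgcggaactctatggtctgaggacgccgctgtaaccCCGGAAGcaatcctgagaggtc
MRPS18A: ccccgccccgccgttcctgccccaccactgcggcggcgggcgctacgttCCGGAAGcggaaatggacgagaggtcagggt

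The core was present in genes called in either direction. It occurred in 4 of the 6 windows of genes called higher against ASO-Ctr (MRPL20, MRPL47, MRPL54 and MRPS21). Of the 8 windows of genes called lower against sO-L1, 2 held it (MRPL16 and MRPS33). Among all members it was 28 of 67, and differences between these small sets were not tested.

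A second motif, that of YY1 (the letters in capitals in the next lines), was searched on both strands and occurred in 10 of the 67 windows (14.9%), against 0.9% of all windows and 1.8% of those of tested genes. Its place differed from that of the ETS core: 9 of the 10 matches lay after the start. The median position of all 10 was 12 bases into the transcript. The matches of MRPS10 (chr6:42217834-42217860, minus strand), MRPS18A (chr6:43687764-43687790, minus strand), MRPS18B (chr6:30617855-30617881, plus strand) and MRPS30 (chr5:44808952-44808978, plus strand) are shown with the motif in capitals.
MRPS10: ggaccggcAAGATGGCGGCgcggacag
MRPS18A: ggtttttgAAGATGGCGGCcctcaagg
MRPS18B: cgtacgtcAAGATGGCGGCgtctgtat
MRPS30: cgcgggcaAAGATGGCGGCggccaggt

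MRPS10 and MRPS18A also hold the ETS core before the start, and 3 members in all had both motifs. No matches of different motifs overlapped in the members. The motif of NRF1, an activator of respiratory chain genes, occurred in 7 of 67 windows (10.4%), against 6.3% of all windows and 10.3% of those of tested genes. At least 1 of the ETS, NRF1 and YY1 motifs was present in 39 of 67 windows (58.2%), against 16.3% of all windows and 26.4% of those of tested genes. Other letters searched were CCAAT (NFY, 29.9% of members and 35.8% of tested genes), CACGTG (MYC, 9.0% and 9.7%), GGGGCGGGG (SP1, 25.4% and 27.2%) and TGATGCAA (ATF4, 0.0% and 0.5%). These matches describe the windows and are not evidence of binding.

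The genes were expressed together at moderate levels. Of the 75 tested genes, 71 had a mean above 10 CPM over the 6 libraries, and the highest library exceeded the lowest by a median of 1.24-fold, a ratio under 1.5 for 72 of them. Levels were compared between genes per kilobase of annotated exon (GENCODE v29). The median of the 76 genes was 30.8 CPM per kb, and the middle portion between the quartiles ran from 14.4 to 47.2. Among the tested genes the median was 34.9 CPM per kb for the 46 MRPL genes and 25.4 for the 29 MRPS genes. Without division by exon length the order was reversed, with medians of 49.7 CPM for MRPL and 55.7 CPM for MRPS genes.

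MRPL3, a core protein of the large subunit, was the most abundant at 144.6 CPM per kb, followed by MRPS34, a mitochondria-specific protein of the small subunit, at 113.7, and MRPS15, a relative of bacterial S15, at 96.3. MRPL3 was at 264.0 and 247.7 CPM in ASO-Ctr, at 283.9 and 253.3 in sO-L1 and at 258.9 and 254.9 in ASO-L1, so its groups overlapped. At the low end of the tested genes were MRPS24 at 0.440 CPM per kb, MRPL38 at 1.12 and MRPL53 at 2.86. MRPS24 had 7 to 21 counts per library, and 77.0% of its exonic bases are shared on the same strand with the readthrough gene URGCP-MRPS24. MRPL30, the untested gene, had 30 counts over all 6 libraries, and 20.2% of its exonic bases are shared on the same strand with other annotated genes. Whether counting used the strand is not given in the sources used here, so reads of overlapping genes may have been left out or assigned to a partner.

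Summed over genes, the 76 genes held 4540 and 4130 CPM in ASO-Ctr, at 4807 and 4208 in sO-L1 and at 4575 and 4164 in ASO-L1. The group means were 4335 ± 290.5, 4507 ± 423.3 and 4370 ± 290.6 CPM (SD, n = 2 each), and the groups overlapped. The MRPL genes summed to 2640 ± 188.2, 2760 ± 281.6 and 2683 ± 199.0 CPM, and the MRPS genes to 1695 ± 102.3, 1747 ± 141.7 and 1686 ± 91.55 CPM. The ratio of the MRPL sum to the MRPS sum stayed between 1.55 and 1.61 in the 6 libraries. The differences between groups in these sums were smaller than the differences between the replicates of a group.

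**Figure D1:**
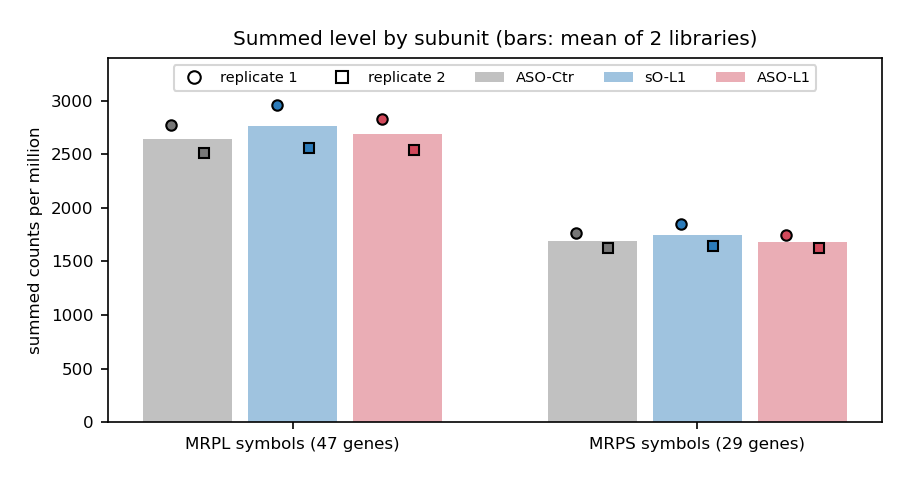
Summed CPM (vertical axis) of the 47 MRPL and the 29 MRPS genes in each group, with bars for the mean of 2 libraries, circles for replicate 1 and squares for replicate 2. In each group replicate 1 lies above replicate 2, by more than the group means differ.

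The most widely shared pattern among the genes was this difference between replicate numbers. Replicate 1 was above replicate 2 in all 3 groups for 67 of the 75 tested genes (89.3%), against 24.6% of all 19156 genes tested. The median difference in log2 CPM, replicate 1 minus replicate 2, was 0.17 in ASO-Ctr, 0.25 in sO-L1 and 0.17 in ASO-L1, whereas the medians over all genes lay between -0.011 and -0.005. The cytosolic ribosomal protein genes moved the same way, with summed levels of 54570 and 48730 CPM in ASO-Ctr, at 56960 and 48450 in sO-L1 and at 58630 and 50740 in ASO-L1. The 13 mitochondrially encoded mRNAs moved the other way, at 27970 and 32270, 29570 and 31840, and 29500 and 32090 CPM. Library depth moved with the replicate number, and its part in this pattern was not tested. Whether a number stands for a shared batch is not given in the labels.

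**Figure D2:**
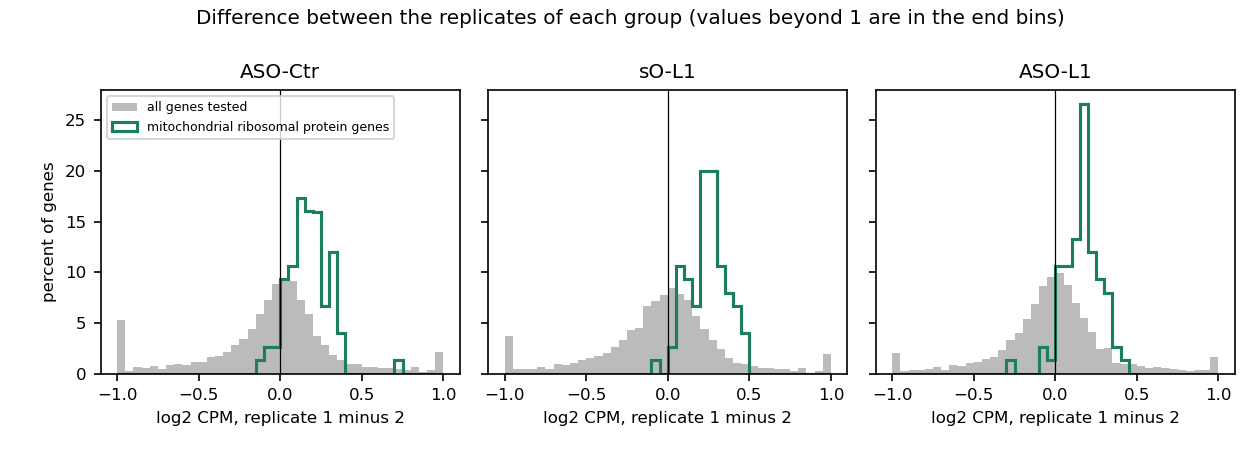
Distribution of the difference in log2 CPM between replicates 1 and 2 (horizontal axis) in each group, as a percent of genes (vertical axis), for all 19156 genes tested (grey) and the 75 tested mitochondrial ribosomal protein genes (green outline). The green distributions are centred to the right of zero, at medians of 0.17, 0.25 and 0.17.

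Because of this shift, 2 fits are given for each comparison. The first removes the shift between replicate numbers (a replicate block), since the authors deposited a batch-corrected table, and the second does not. Both are edgeR's quasi-likelihood test over all 19156 genes with Benjamini-Hochberg adjustment, and a gene was called at an adjusted p under 0.05. Values after ± in log2 fold changes are approximate standard errors of the blocked fit, with n = 2 libraries per group. They were derived from the test, as the size of the log2 fold change divided by the square root of its F statistic. No member was called in any comparison without the block, so each rise or fall below holds in the blocked fit alone.

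The first comparison sets the LINE1 antisense oligo against its sense counterpart, ASO-L1 against sO-L1. In the blocked fit 12 members fell and 2 rose, together 18.7% of the 75, where 23.0% of all genes tested were called. Those that fell were MRPL1, MRPL13, MRPL16, MRPL17, MRPL23, MRPL24, MRPL35 and MRPL41 of the large subunit and MRPS6, MRPS28, MRPS33 and MRPS35 of the small subunit, and those that rose were MRPL20 and MRPL42. By direction, 16.0% of members were called lower and 2.67% higher, against 12.7% and 10.3% of all genes. Calls were more frequent at the members' own levels: of the 7823 genes with a mean CPM between percentiles 5 and 95 of the members, 33.5% were called, 19.6% lower and 13.9% higher. The share of members called lower thus lay above that of all genes and below that of genes of like level. The changes were small, from -0.46 to 0.29 on the log2 scale. Their median was -0.043, against -0.001 over all genes and -0.015 over the genes of like level. Of the members 29 lay above zero and 46 below, against 3613 and 4210 of the 7823. The CPM of the groups did not overlap for 5 members higher and 10 lower in ASO-L1 (22.4% and 24.1% of all genes tested). Without the block, 0 members were called (1.84% of all genes were) and 3 of the 75 had an unadjusted p under 0.05. So did 3167 of all 19156 genes and 1678 of the 7823 genes of like level.

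The median was not alike in the 2 replicates. It was -0.083 between the libraries numbered 1 and 0.008 between those numbered 2, with 24 and 39 of 75 genes above zero. The median below zero was thus seen in the libraries numbered 1 and not in those numbered 2. In the blocked fit it became 0.002 with sO-L1 replicate 1 left out and -0.012 with ASO-L1 replicate 1 left out. Leaving out replicate 2 gave -0.072 for sO-L1 and -0.067 for ASO-L1.

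Among the proteins of bacterial type, 7 of 29 tested in the large subunit fell and 1 rose (median -0.056), and 2 of 16 in the small subunit fell (median -0.057). Among the mitochondria-specific proteins, 1 of 19 in the large subunit fell and 1 rose (median 0.039), and 2 of 10 in the small subunit fell (median -0.036). Counted in this class are MRPS18A (large subunit) and MRPS18B (small subunit), although they are relatives of bacterial S18. Differences between these classes were not tested.

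MRPS28, a counterpart of bacterial S1 in the small subunit, had the largest called change in size. It was at 24.4 and 19.5 CPM in ASO-Ctr, at 24.8 and 18.8 in sO-L1 and at 15.8 and 15.2 in ASO-L1 (replicate 1 first, as in all pairs below). Both ASO-L1 libraries were below all 4 control libraries. The log2 fold change was -0.46 ± 0.08 against sO-L1 (0.726-fold, adjusted p = 8.95e-06 by edgeR, 0.174 without the block) and -0.46 ± 0.08 against ASO-Ctr (adjusted p = 1.66e-05, 0.189 without the block). MRPS28 overlaps the annotated transcript AC036214.3 over 42.0% of its exonic bases on the same strand.

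MRPL1, which forms the mobile stalk beside the exit site of tRNA, was at 59.0 and 58.1 CPM in ASO-Ctr, at 69.4 and 62.5 in sO-L1 and at 52.8 and 51.8 in ASO-L1. ASO-L1 was the lowest group without overlap, and sO-L1 lay above ASO-Ctr, also without overlap. MRPL1 fell by 0.32 ± 0.05 on the log2 scale against sO-L1 (edgeR adjusted p = 5.92e-06, 0.0879 without the block). Against ASO-Ctr its value was -0.14 ± 0.06 (edgeR adjusted p = 0.056), which did not pass.

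MRPS35, a mitochondria-specific protein of the small subunit, was at 82.6 and 74.0 CPM in ASO-Ctr, at 88.4 and 82.2 in sO-L1 and at 73.6 and 69.0 in ASO-L1. The ASO-L1 libraries lay below every control library, by less than 1 CPM for the nearest pair. It fell by 0.25 ± 0.05 on the log2 scale against sO-L1 (edgeR adjusted p = 0.000126, 0.21 without the block), and its value against ASO-Ctr was -0.11 ± 0.05 (edgeR adjusted p = 0.136).

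MRPS6, which sits beside the S18 protein in the bacterial small subunit, was at 66.6 and 57.9 CPM in ASO-Ctr, at 67.8 and 54.2 in sO-L1 and at 51.9 and 51.3 in ASO-L1, again with no overlap. It fell by 0.22 ± 0.06 on the log2 scale against sO-L1 (edgeR adjusted p = 0.00335, 0.385 without the block). It fell by 0.24 ± 0.06 against ASO-Ctr (edgeR adjusted p = 0.00189, 0.366 without the block). Both calls ended without ASO-L1 replicate 1 (edgeR adjusted p = 0.501 and 0.331), and the call against sO-L1 also ended without sO-L1 replicate 1 (0.429). MRPS6 shares 31.9% of its exonic bases on the same strand with SLC5A3 and AP000317.2.

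MRPS33, a mitochondria-specific protein of the small subunit, was at 39.2 and 31.0 CPM in sO-L1, against 31.2 and 27.5 in ASO-L1, so the groups overlapped. It fell by 0.24 ± 0.06 on the log2 scale (edgeR adjusted p = 0.00291, 0.457 without the block). MRPL17, a bacterial-type protein of the large subunit, was at 61.2 and 51.2 CPM in sO-L1, against 52.2 and 43.8 in ASO-L1, also with overlap. It fell by 0.22 ± 0.05 (edgeR adjusted p = 0.00167, 0.431 without the block). Both calls ended without sO-L1 replicate 1 (edgeR adjusted p = 0.17 for MRPS33 and 0.101 for MRPL17), and that of MRPS33 also without ASO-L1 replicate 1 (0.226). For both genes the decrease was seen within each replicate number and was smaller than the difference between the sO-L1 replicates.

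The tunnel through which the new chain leaves the large subunit is lined at its exit by MRPL22, MRPL23, MRPL24 and MRPL47, and MRPL45 holds the ribosome to the inner membrane. MRPL23 fell by 0.21 ± 0.06 on the log2 scale against sO-L1 (edgeR adjusted p = 0.0086, 0.554 without the block), from 44.4 and 33.4 CPM to 35.9 and 30.6. MRPL24 fell by 0.20 ± 0.07 (edgeR adjusted p = 0.0479, 0.48 without the block), from 24.1 and 19.3 CPM to 19.7 and 17.8. In both genes the groups overlapped, and MRPL24 was near the threshold. Without sO-L1 replicate 1 or ASO-L1 replicate 1 the calls ended for MRPL23 (edgeR adjusted p = 0.379 and 0.324) and MRPL24 (0.674 and 0.356), and without ASO-L1 replicate 2 for MRPL24 (0.0702). MRPL22 and MRPL45 did not pass, at -0.024 ± 0.06 and -0.043 ± 0.05, and MRPL47 had 0.093 ± 0.05 (edgeR adjusted p = 0.202).

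MRPL20, whose bacterial relative binds ribosomal RNA early in assembly of the large subunit, was at 89.3 and 71.9 CPM in ASO-Ctr, at 95.7 and 71.4 in sO-L1 and at 104.6 and 81.7 in ASO-L1. Within each replicate number ASO-L1 was the highest library, but across numbers the groups overlapped. MRPL20 rose by 0.17 ± 0.05 on the log2 scale against sO-L1 (edgeR adjusted p = 0.0105, 0.7 without the block) and by 0.23 ± 0.05 against ASO-Ctr (edgeR adjusted p = 0.000696, 0.553 without the block). The call against sO-L1 ended without sO-L1 replicate 2, ASO-L1 replicate 1 or ASO-L1 replicate 2 (edgeR adjusted p = 0.284, 0.0572 and 0.101).

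MRPL42, a mitochondria-specific protein of the large subunit, was at 128.7 and 121.5 CPM in ASO-Ctr, at 136.6 and 122.1 in sO-L1 and at 146.4 and 139.1 in ASO-L1. Both ASO-L1 libraries were above every control library. MRPL42 rose by 0.15 ± 0.05 on the log2 scale against sO-L1 (edgeR adjusted p = 0.0179, 0.45 without the block) and by 0.21 ± 0.05 against ASO-Ctr (edgeR adjusted p = 0.000926, 0.261 without the block). The call against sO-L1 ended without sO-L1 replicate 2 or ASO-L1 replicate 2 (edgeR adjusted p = 0.346 and 0.234).

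**Figure D3:**
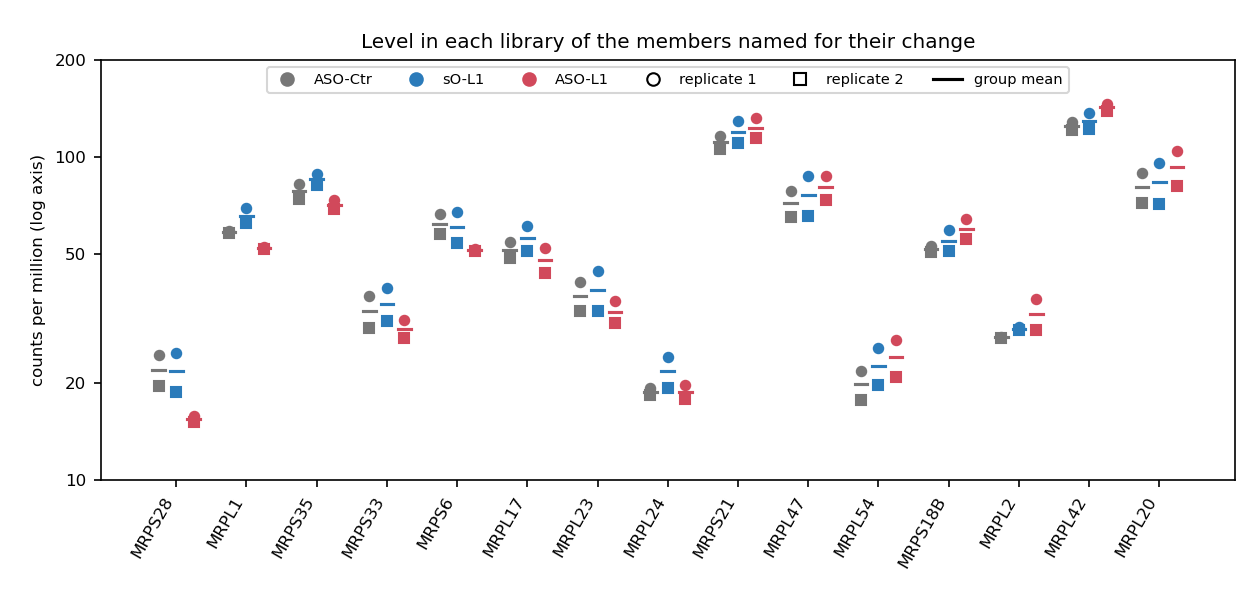
CPM on a log axis of the genes with the largest called changes, in each library (circles for replicate 1, squares for replicate 2, lines for group means; grey ASO-Ctr, blue sO-L1, red ASO-L1). For MRPS28 both ASO-L1 libraries (15.8 and 15.2) lie below the other 4, whereas for MRPL20 the groups overlap.

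ASO-L1 against ASO-Ctr compares the LINE1 antisense oligo with the non-targeting oligo, and it shares the ASO-L1 libraries with the comparison above. Here 7 members rose (MRPL2, MRPL20, MRPL42, MRPL47, MRPL54, MRPS18B and MRPS21) and 2 fell (MRPS28 and MRPS6), together 9 of the 75, where 21.5% of all genes tested were called. By direction, 9.33% of members were called higher and 2.67% lower, against 9.88% and 11.6% of all genes. Of the 7823 genes of like level, 31.9% were called, 14.2% higher and 17.6% lower. The median was 0.039 (all genes -0.002, genes of like level -0.001), with 49 members above zero and 26 below. In replicates 1 and 2 it was 0.035 and 0.039. It was 0.019 without ASO-Ctr replicate 1 and 0.004 without ASO-L1 replicate 2. The groups did not overlap for 11 members higher and 7 lower (20.9% and 27.6% of all genes tested). Without the block, 0 members were called (1.95% of all genes were) and 3 of the 75 had an unadjusted p under 0.05. So did 3207 of all 19156 genes and 1735 of the 7823 genes of like level.

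By class, 3 of 29 tested bacterial-type genes of the large subunit rose (median 0.010), and 2 of 19 mitochondria-specific genes of that subunit rose (median 0.088). In the small subunit 1 of 16 bacterial-type genes rose and 2 fell (median 0.007). Of the 10 counted there as mitochondria-specific 1 rose (median 0.032), MRPS18B, which is a relative of bacterial S18. Of the genes called, MRPL20 and MRPL42 were higher and MRPS28 and MRPS6 lower against both control groups.

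MRPL54, a mitochondria-specific protein of the large subunit, had the largest called increase. It was at 21.8 and 17.7 CPM in ASO-Ctr, at 25.6 and 19.7 in sO-L1 and at 27.2 and 20.9 in ASO-L1. The groups overlapped, and the replicates of ASO-L1 differed by more than its mean differed from that of ASO-Ctr. MRPL54 rose by 0.29 ± 0.07 on the log2 scale (edgeR adjusted p = 0.00191, 0.416 without the block), and against sO-L1 its value was 0.094 ± 0.07 (edgeR adjusted p = 0.358).

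MRPL2, a protein close to the peptidyl transferase centre, was at 27.8 and 27.6 CPM in ASO-Ctr, at 29.7 and 29.2 in sO-L1 and at 36.2 and 29.1 in ASO-L1. It rose by 0.24 ± 0.07 on the log2 scale against ASO-Ctr without overlap (edgeR adjusted p = 0.00839, 0.291 without the block). Its call ended without ASO-L1 replicate 1 (edgeR adjusted p = 0.465) or ASO-Ctr replicate 1 (0.167). MRPL47 was at 78.8 and 65.1 CPM in ASO-Ctr, at 87.2 and 65.6 in sO-L1 and at 87.7 and 73.6 in ASO-L1, with overlap. It rose by 0.19 ± 0.05 against ASO-Ctr (edgeR adjusted p = 0.00742, 0.596 without the block). MRPS21, a relative of bacterial S21, was at 116.5 and 106.2 CPM in ASO-Ctr, at 129.6 and 110.6 in sO-L1 and at 131.8 and 115.0 in ASO-L1, with overlap. It rose by 0.17 ± 0.05 against ASO-Ctr (edgeR adjusted p = 0.0106, 0.487 without the block). Against sO-L1, MRPL2 (0.14 ± 0.07, edgeR adjusted p = 0.119), MRPL47 (0.093 ± 0.05, 0.202) and MRPS21 (0.046 ± 0.05, 0.552) did not pass. The call of MRPL47 ended without ASO-Ctr replicate 1 or ASO-L1 replicate 2 (edgeR adjusted p = 0.0989 and 0.232), and that of MRPS21 without ASO-Ctr replicate 1, ASO-L1 replicate 1 or ASO-L1 replicate 2 (0.203, 0.0674 and 0.0791).

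The human genome holds 3 relatives of bacterial S18, which occupy different places in the mitochondrial ribosome. MRPS18B, in the small subunit, was at 53.0 and 50.7 CPM in ASO-Ctr, at 59.3 and 51.1 in sO-L1 and at 64.2 and 55.7 in ASO-L1, and ASO-L1 did not overlap ASO-Ctr. It rose by 0.22 ± 0.06 on the log2 scale against ASO-Ctr (edgeR adjusted p = 0.0026, 0.324 without the block), and its value against sO-L1 was 0.13 ± 0.05 (edgeR adjusted p = 0.0839). The call ended without ASO-Ctr replicate 1 (edgeR adjusted p = 0.131). MRPS18C, in the S18 position, and MRPS18A, in the large subunit, did not pass, with 0.019 ± 0.07 and 0.13 ± 0.09 against ASO-Ctr. The last pair overlap genes on the opposite strand, MRPS18C with ABRAXAS1 over 78.9% of its exonic bases and MRPS18A with RSPH9 over 56.9%. Per kilobase, MRPS18B was at 36.3 CPM, MRPS18C at 12.2 and MRPS18A at 11.5.

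Several genes of known position did not pass against either control group. The genes of the stalk that recruits translation factors had values against sO-L1 of -0.032 ± 0.05 (MRPL10), -0.048 ± 0.05 (MRPL11) and -0.15 ± 0.06 (MRPL12, edgeR adjusted p = 0.0651). Of MRPL12, 68.2% of exonic bases are shared on the same strand with AC139530.2. MRPS12, part of the decoding centre, had 0.073 ± 0.06 against sO-L1 and 0.15 ± 0.06 against ASO-Ctr (edgeR adjusted p = 0.069). MRPS30, which despite its symbol belongs to the large subunit, had -0.027 ± 0.05 and 0.043 ± 0.05. MRPS36, now known as a part of the 2-oxoglutarate dehydrogenase complex, had -0.095 ± 0.07 and -0.10 ± 0.07.

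**Figure D4:**
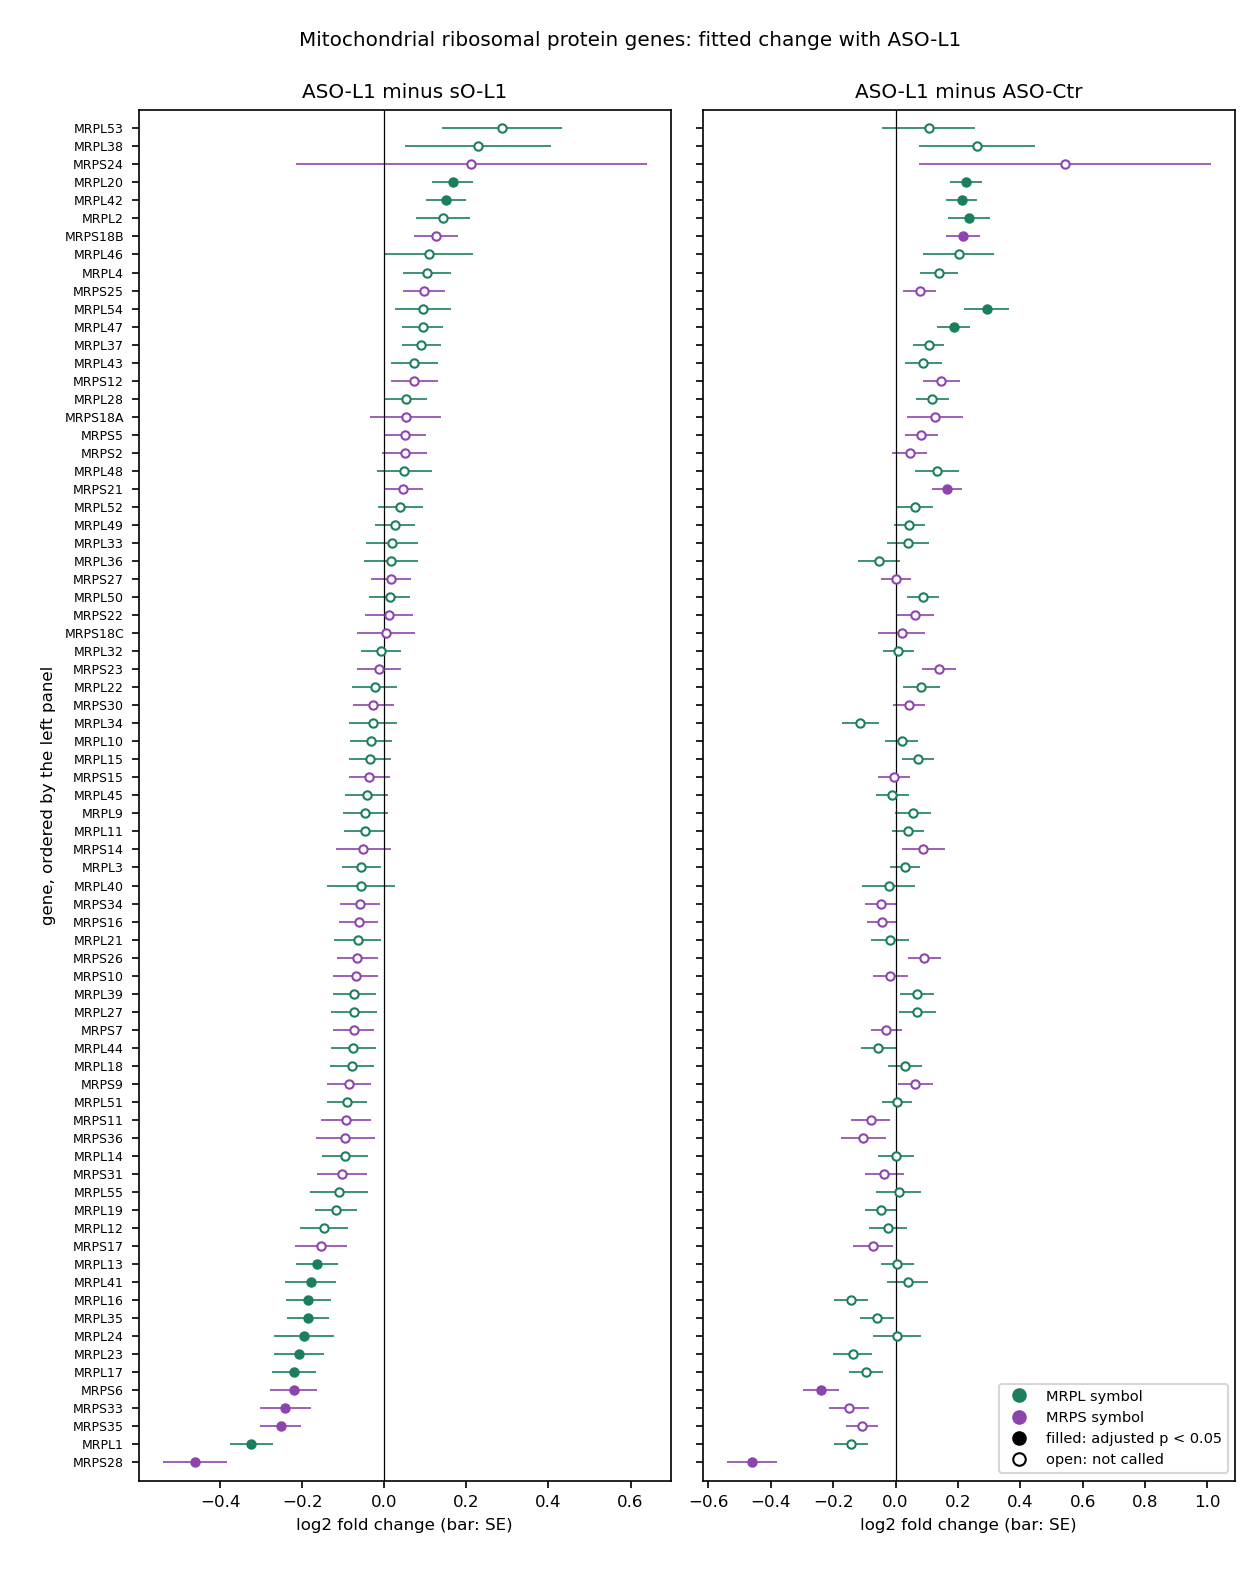
Fitted log2 fold changes of the 75 tested genes in ASO-L1 against sO-L1 (left) and against ASO-Ctr (right), with bars for the standard error, green for MRPL and purple for MRPS symbols, and filled points for genes called in the blocked fit. On the left 12 filled points lie below zero and 2 above, and on the right 2 lie below and 7 above, and the panels share the ASO-L1 libraries.

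sO-L1 against ASO-Ctr compares the control oligos with each other. No member was called (1.72% of all genes tested were in the blocked fit and 0.0% without the block), by edgeR with or without the block, by DESeq2 or by limma-voom. In the blocked fit 15 of the 75 had an unadjusted p under 0.05. So did 2448 of all 19156 genes and 1358 of the 7823 genes of like level. The values leaned one way all the same: 67 of the 75 genes lay above zero and 8 below. Among the genes of like level 4278 lay above and 3545 below. The members' median was 0.070, against 0 over all genes and 0.011 over those of like level. It was 0.038 without sO-L1 replicate 1 and 0.11 without sO-L1 replicate 2. The median was 0.11 between the libraries numbered 1 and 0.038 between those numbered 2. The groups did not overlap for 10 members higher and 1 lower in sO-L1 (12.8% and 16.8% of all genes tested). The lowest adjusted p belonged to MRPL41, a mitochondria-specific protein of the large subunit, named here after its values were seen. It was at 31.1 and 29.4 CPM in ASO-Ctr, at 36.3 and 33.6 in sO-L1 and at 33.9 and 27.9 in ASO-L1, a difference of 0.22 ± 0.06 between the control groups (edgeR adjusted p = 0.0688). MRPL41 was called lower in ASO-L1 against sO-L1, at -0.18 ± 0.06 (edgeR adjusted p = 0.0295), while its value against ASO-Ctr was 0.039 ± 0.07.

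Beside MRPL1 and MRPL41, 8 genes were called lower in ASO-L1 against sO-L1 but not against ASO-Ctr. All 8 were above zero in sO-L1 against ASO-Ctr, from 0.042 for MRPL16 to 0.20 for MRPL24. So were 67 of the 75 members, and the way the 8 were chosen favours this sign. Their values against ASO-Ctr were 0.006 ± 0.05 for MRPL13, -0.14 ± 0.06 for MRPL16, -0.095 ± 0.06 for MRPL17, -0.14 ± 0.06 for MRPL23, 0.004 ± 0.08 for MRPL24, -0.059 ± 0.05 for MRPL35, -0.15 ± 0.06 for MRPS33 and -0.11 ± 0.05 for MRPS35. MRPL2, MRPL47, MRPL54, MRPS18B and MRPS21 were called higher in ASO-L1 against ASO-Ctr but not against sO-L1. In sO-L1 against ASO-Ctr they too lay above zero, from 0.091 for MRPS18B to 0.20 for MRPL54. The 3 comparisons share libraries, so these values are not independent of each other.

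Beyond the members, some other genes of mitochondrial translation were called in the blocked fit. For reference, 23.0% of all genes tested were called against sO-L1 and 21.5% against ASO-Ctr. Of the genes at the members' levels, 33.5% and 31.9% were. Of 7 structural proteins of this ribosome that carry other names, 2 rose and 1 fell against sO-L1 (42.9%). Against ASO-Ctr 1 rose and 1 fell (28.6%). DAP3, a GTP-binding protein of the small subunit, was at 86.0 and 76.9 CPM in ASO-Ctr, at 85.3 and 83.0 in sO-L1 and at 68.4 and 68.8 in ASO-L1, without overlap. It fell by 0.29 ± 0.05 on the log2 scale against sO-L1 (edgeR adjusted p = 2.56e-05, 0.12 without the block) and by 0.22 ± 0.05 against ASO-Ctr (edgeR adjusted p = 0.00188, 0.218 without the block). GADD45GIP1, a protein of the large subunit, rose by 0.14 ± 0.05 against sO-L1 (edgeR adjusted p = 0.047) and by 0.25 ± 0.05 against ASO-Ctr (edgeR adjusted p = 0.00032, 0.338 without the block). MRP63, an older symbol of MRPL57, rose by 0.14 ± 0.05 against sO-L1 (edgeR adjusted p = 0.0449, 0.514 without the block).

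Of 26 tested assembly factors, 2 rose and 3 fell against sO-L1 (19.2%), and 3 rose and 1 fell against ASO-Ctr (15.4%). NGRN, which acts on the large ribosomal RNA, was at 27.7 and 28.1 CPM in ASO-Ctr, at 27.6 and 25.7 in sO-L1 and at 38.0 and 32.7 in ASO-L1. It rose by 0.41 ± 0.06 on the log2 scale against sO-L1 without overlap (edgeR adjusted p = 2e-06, 0.0757 without the block). FASTKD2, which also acts on that RNA, fell by 0.20 ± 0.05 (edgeR adjusted p = 0.00186, 0.199 without the block).

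Of 18 translation factors and RNA-binding partners, 4 rose and 1 fell against sO-L1 (27.8%), and 5 rose and 2 fell against ASO-Ctr (38.9%). Their summed level was at 1448 and 1432 CPM in ASO-Ctr, at 1474 and 1473 in sO-L1 and at 1602 and 1572 in ASO-L1. ASO-L1 thus lay above every control library. This sum includes LRPPRC, whose values follow, and it does not show a rise of the factors as a set. Their median log2 fold change was -0.003 against sO-L1 (8 above zero, 10 below) and 0.076 against ASO-Ctr (13 above, 5 below). LRPPRC, which stabilises mitochondrial mRNAs, was at 468.7 and 501.0 CPM in ASO-Ctr, at 475.6 and 518.4 in sO-L1 and at 608.5 and 620.6 in ASO-L1. Both ASO-L1 libraries were above all control libraries. LRPPRC rose by 0.31 ± 0.05 on the log2 scale against sO-L1 (edgeR adjusted p = 6.52e-07, 0.0596 without the block) and by 0.36 ± 0.05 against ASO-Ctr (edgeR adjusted p = 2.13e-08). The latter was the only call among these lists that passed without the block (adjusted p = 0.0356).

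The RNAs of the mitochondrial genome were measured in poly(A)-selected libraries, which limits what their levels mean. Neither ribosomal RNA was called against sO-L1, and MT-RNR2 was higher against ASO-Ctr by 0.17 ± 0.05 (edgeR adjusted p = 0.0107, 0.466 without the block). Of the 13 mitochondrially encoded mRNAs, 2 rose and 1 fell against sO-L1 (23.1%), and 3 rose and 1 fell against ASO-Ctr (30.8%). MT-ND1, a subunit of complex I, was at 1590 and 1819 CPM in ASO-Ctr, at 1634 and 1721 in sO-L1 and at 2019 and 2085 in ASO-L1, and rose by 0.30 ± 0.05 against sO-L1 (edgeR adjusted p = 2.49e-06, 0.0912 without the block).

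For the cytosolic ribosome, 16 of 85 tested protein genes rose and 6 fell against sO-L1 (25.9% called, median 0.067). Against ASO-Ctr 36 rose and 3 fell (45.9% called, median 0.115). Of all genes tested, 23.0% and 21.5% were called. The medians of the mitochondrial set were -0.043 and 0.039 in the same comparisons. The difference between these lists was not tested, and none of the cytosolic genes was called without the block.

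The genes called lower against sO-L1 included several that are long in the genome. Their median RefSeq span was 29.9 kb (12 genes), against 8.41 kb for the 60 genes not called that had a span, and the 2 that rose had a median of 27.0 kb. MRPS28 spans 112.0 kb, MRPL1 90.0 kb, MRPS6 69.5 kb, MRPL23 67.6 kb, MRPL13 49.7 kb and MRPS35 45.5 kb in RefSeq. The others that fell are shorter, at 14.4 (MRPL35), 12.3 (MRPS33), 5.41 (MRPL24), 4.64 (MRPL16), 2.96 (MRPL17) and 0.677 kb (MRPL41). Long members were also found among those not called against sO-L1, such as MRPS27 (101.0 kb), MRPL48 (77.3 kb) and MRPS9 (61.9 kb). In GENCODE v29 the longest members are MRPS22 (351.4 kb) and MRPL33 (216.4 kb), which were not called either. Their RefSeq spans are 13.1 and 8.02 kb. Across the 74 members with a RefSeq span, Spearman's rho between that span and log2 fold change was -0.138 against sO-L1 and -0.123 against ASO-Ctr. These values are given as a description, since the genes share the same libraries. Across the 14715 tested genes with a span the values had the same sign, -0.146 and -0.215.

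In the authors' deposited table of ASO-L1 against sO-L1, 74 of the genes were listed, and 2 were higher and 11 lower at its adjusted p under 0.05, where 23.2% of its 16753 genes were. All 13 were also called by the blocked edgeR fit, and the gene that differed was MRPL24, for which the authors' deposited table gives an adjusted p of 0.0942. The authors' deposited table gives log2 fold changes of -0.45 for MRPS28, -0.31 for MRPL1 and 0.16 for MRPL42. It comes from the same libraries and is not independent evidence.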

How the data were processed

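Per the labels' protocols, poly(A) RNA was sequenced with a directional kit. Per the submitters' processing notes, Trim Galore 0.4.0, TopHat2 2.0.13, featureCounts of Subread 1.5.0 and the build hg19 were used. The authors deposited raw counts per gene symbol (duplicates removed, per the table's name), a table of log2 normalised values after batch correction, and a comparison table with log2 fold changes and p-values. The members and gene lists were chosen with earlier results of these data known.

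Counts of 53715 genes (92 spike-in entries left out) were filtered with filterByExpr (minimum count 10, minimum total 15), scaled by TMM and fitted in R 4.3.3 by edgeR 4.0.16 (quasi-likelihood, robust; group and replicate number; all 6 libraries; 2 residual degrees of freedom, median prior 44.8, biological coefficient of variation 0.0354). The pipeline was tested on simulated data. Replicate differences correlated across groups at 0.224, 0.153 and 0.246; with 2 numbers and no label naming a batch, the pairing is not established. Of the members, 73 of 74 had replicate means within 0.02 in the authors' log2 table, against 2 of 75 in log2 CPM.

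Named members were, per comparison and direction, up to 8 called genes with the largest change and the same sign in both numbers, genes of fixed roles, and the 3 highest and 3 lowest per level. From each other list, up to 4 genes with the smallest p could be named. Exon lengths and overlaps came from GENCODE v29, another build than hg19, and promoters from RefSeq. Of the counts near the members, 833 over all libraries fell in 66 pseudogene entries named after them, against 1239193 in the members. Alternatives were DESeq2 1.42.0 and its size factors, limma-voom (limma 3.58.1), upper-quartile scaling, other filters, no block, the 4 libraries compared, each library left out, thinning to the shallowest library and an adjusted p under 0.1. Counting limits cover counting error only.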

Additional observations from a re-analysis of the deposited data

How the results depend on the processing

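No called change of a named gene reversed its sign under any alternative run; among values not called, the sign changed in 16 of 313 (ASO-L1 against sO-L1), 15 of 328 (against ASO-Ctr) and 26 of 463 (sO-L1 against ASO-Ctr). Without the replicate block, members called went from 2 higher and 12 lower to 0 and 0 against sO-L1, and from 7 higher and 2 lower to 0 and 0 against ASO-Ctr, where the median became 0.045. DESeq2 called 7 lower against sO-L1, and the cause was not tested. An adjusted p under 0.1 gave 5 lower against ASO-Ctr and 3 higher in sO-L1 against ASO-Ctr, where fitting only the 4 libraries compared gave 3 and thinning gave 1. The median against ASO-Ctr (0.039) was 0.042 with DESeq2 size factors, 0.051 with no filter, 0.043 with DESeq2 and 0.031 with limma-voom.

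Leaving out each library in turn gave 0 to 2 higher and 3 to 13 lower against sO-L1 (3 without sO-L1 replicate 1, 5 without ASO-L1 replicate 1), 3 to 10 higher and 1 to 5 lower against ASO-Ctr (3 higher without ASO-Ctr replicate 1; 1 lower without ASO-L1 replicate 1, 5 lower without ASO-L1 replicate 2), and 0 to 2 higher in sO-L1 against ASO-Ctr. The median of the members ranged from -0.072 to 0.002 against sO-L1, where it turned sign without sO-L1 replicate 1. It ranged from 0.004 to 0.057 against ASO-Ctr and from 0.038 to 0.112 in sO-L1 against ASO-Ctr. The spread of a group left with 1 library is taken from the other groups. Among the named genes, MRPL24 lost its call under 9 settings beside the fit without the block, MRPL23 also under DESeq2 and thinning, MRPL2 under DESeq2 and MRPL47 under thinning. Scaling moved the median of all genes by at most 0.0062. Depth limits MRPL30 and MRPS24 most, at 30 and 95 counts in all.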
